A study of Mus musculus with 6 samples.

Results

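The mitochondrial SLC25 carriers are described here in morula-like aggregates, the 3-dimensional cell clusters grown from mouse expanded pluripotent stem cells as a model of the compacting embryo. They were taken as every row of the deposited gene table whose symbol is SLC25A followed by a number, which gave 46 of 18388 genes. Aggregates were exposed to perfluorooctanoic acid (PFOA), a persistent fluorinated surfactant, or to the vehicle dimethyl sulfoxide (DMSO), and 3 libraries of polyadenylated RNA were sequenced per group. All libraries share the cell type and culture. Neither the dose, the length of exposure, the cell line nor its strain is named in the labels. They also leave unsaid whether replicates are separate cultures, so the p-values below measure no more than the spread between libraries, which can be technical. The series title names c-MYC in embryo compaction, and the comparison of PFOA with DMSO asks what the compound does to the transcriptome of the model.

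SLC25 proteins are encoded in the nucleus and sit, with few exceptions, in the inner membrane of mitochondria. Each is built from tandem repeats of a paired transmembrane helix and moves a small solute, often in exchange for another: ADP for ATP, phosphate, citrate, amino acids, coenzymes, nucleotides, iron. They are made in the cytosol, handed over by the receptor TOM70 and small TIM chaperones, and inserted by the TIM22 complex. Proliferating pluripotent cells rely on them for exporting ATP and citrate and for passing electrons between compartments through the malate-aspartate shuttle.

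The levels are FPKM, which counts the fragments of a gene relative to the length of its transcript and to the fragments of the library, so they can be compared between genes. FPKM totals were 641975 to 657239 with DMSO and 585739 to 630644 with PFOA, with the lowest in PFOA 1, and the number of reads behind them is unknown. The log2 ratio of the mean totals, PFOA over DMSO, was −0.087, which bears on every direction given below. All 10 pluripotency markers were present, with a summed level of 4665 to 4880 FPKM with DMSO and 4032 to 4517 with PFOA. Most of this sum and of its difference lay in Dppa5a, at 2203 to 2304 and 1672 to 2125 FPKM, and Pou5f1, at 955 to 1018 and 849 to 917. Nanog (272 to 282 against 262 to 268) was, like Dppa5a and Pou5f1, lower in every PFOA library than in every DMSO library. Esrrb (107.0 to 107.2 against 110.1 to 114.0) and Tfcp2l1 (22.4 to 24.1 against 25.7 to 29.3) were higher in every PFOA library than in every DMSO library. The other markers of this list overlapped between the groups. All 10 fibroblast markers were at low levels, with sums of 25.3 to 31.5 and 23.2 to 26.1. Dcn (6.77 to 8.50 against 5.77 to 6.57) and Twist2 (1.64 to 2.14 against 1.06 to 1.19) were lower in every PFOA library, and the other fibroblast markers overlapped. The 7 trophectoderm markers summed to 510.4 to 582.5 and 494.6 to 564.0, mostly keratins, and the 7 primitive endoderm markers to 7.5 to 8.6 and 8.0 to 8.5. No marker was at 0 in a library, and their part in the results was not tested. In bulk RNA, fewer cells of a type and less RNA per cell cannot be told apart.

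The family spans a wide range of levels and is dominated by few members. Of the 46 carriers, 4 had a mean of at least 100 FPKM over the 6 libraries, 15 lay between 10 and 100, 18 between 1 and 10 and 9 under 1. Slc25a5, the ADP/ATP carrier of dividing cells, was the most abundant at 509 to 549 FPKM (median 518), and the phosphate carrier Slc25a3 followed at 407 to 455 (median 431). Their ranges did not overlap. Slc25a39, the mitochondrial glutathione importer, ranged from 167 to 193 and the ADP/ATP carrier Slc25a4 from 143 to 170, and these ranges overlapped. The citrate carrier Slc25a1, at 61.7 to 72.7, and the pyrimidine nucleotide carrier Slc25a36, at 55.5 to 65.0, overlapped as well. These 6 genes held 76.4% to 78.1% of all SLC25 FPKM in each library. From the 14th rank, Slc25a40 at 15.3 to 15.95 FPKM, downwards, most neighbours in the order overlapped.

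**Figure D1:**
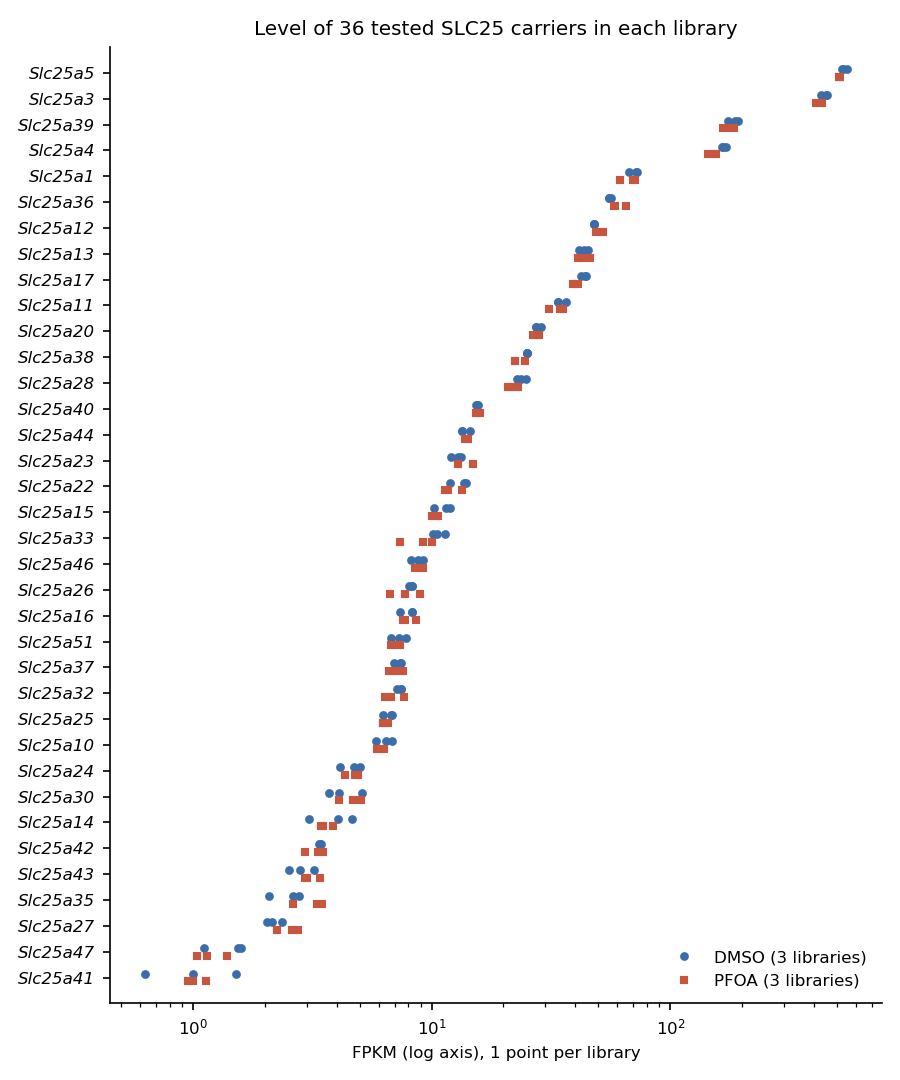
FPKM of 36 of the 37 tested carriers in each of the 3 DMSO (circles) and 3 PFOA (squares) libraries on a log axis, ordered by mean level. Slc25a5 and Slc25a3 stand at 407 FPKM or more in every library, and for most carriers the points of both groups lie on top of each other.

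The 9 carriers under 1 FPKM were not tested. The germ-line ADP/ATP carrier Slc25a31 was at 0.48, 0.87 and 1.07 FPKM with DMSO 1 to 3 and 1.12, 1.10 and 0.88 with PFOA 1 to 3. Slc25a45 was at 0.77, 0.63 and 0.68 with DMSO and 0.50, 0.51 and 0.49 with PFOA, so its groups did not overlap. The glutamate carrier Slc25a18, the basic amino acid carrier Slc25a29, Slc25a48 and Slc25a53 ranged from 0.19 to 0.59. The ornithine carrier Slc25a2 and Slc25a34 lay at 0.05 to 0.11, and the oxodicarboxylate carrier Slc25a21 between 0.03 and 0.06 with PFOA 3 listed at 0.

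Because the series centres on c-MYC, the promoters were searched for the E-box CACGTG, the hexamer that MYC-MAX dimers are known to bind. Windows of 250 bases before to 50 after the start site, from RefSeq on GRCm38.p6, were found for 35 carriers and read on both strands. The hexamer was in 7 of these 35 genes (20.0%), against 8.1% of all genes in the promoter table and 12.1% of those tested here. The following 30-base stretches show the E-box in capitals, 5′ to 3′ on the strand of the gene, and are given so that the genes can be followed in the values below.
Slc25a1, chr16:17928440-17928469, minus strand: cgctccagacgCACGTGtctctaaactgca
Slc25a13, chr6:6217281-6217310, minus strand: cacagtctgagtCACGTGtcctggcccctc
Slc25a14, chrX:48623382-48623411, plus strand: tccacctccctcCACGTGacgccccaccca
Slc25a15, chr8:22398337-22398366, minus strand: cgccctgccgcaCACGTGccgcggctccgg
Slc25a31, chr3:40708766-40708795, plus strand: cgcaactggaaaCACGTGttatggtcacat
Slc25a33, chr4:149774268-149774297, minus strand: gacgtcacggcccggcctccgcCACGTGac
Slc25a36, chr9:97111211-97111240, minus strand: cccctgggcgatCACGTGaaagaggcgtgc
In Slc25a33 the hexamer begins 8 bases before the start site, and in the others 54 to 239 bases before it. A match is a description of these letters and not a shown binding site. The palindromic core of the NRF1 site, searched in the same windows on both strands, was in 0 of the 35 genes, against 1.1% of all genes in the table and 2.4% of those tested. It therefore overlapped no E-box.

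PFOA and DMSO differed little in the carriers, and none of the 37 tested passed the test over all genes. Values were compared as log2(FPKM + 1) in limma, where the fold changes of low genes are understated. The smallest Benjamini-Hochberg adjusted p of a carrier was 0.134, for Slc25a4, and 0 carriers were called at 0.05, against 1 of 11876 genes (0.00842%). At an unadjusted p under 0.05, 5 carriers were lower (13.5%; 12.5% of all tested genes) and 1 was higher (2.70%; 8.56% of all). The groups did not overlap for 5 carriers that were lower (13.5%; 13.7% of all) and 2 that were higher (5.41%; 13.5% of all). The share that was lower was thus near that of the whole table. The median absolute log2 fold change of the carriers was 0.076, the same value as over all genes, and the median half-width of their 95% intervals was 0.142.

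As deposited, 24 of the 37 carriers were lower in PFOA and 13 higher, a 64.9% share of lower against 52.4% of all genes. The median log2 fold change was −0.048, against −0.0065 over all genes. The split depended on the scaling. With each library brought to the same FPKM total, a scaling chosen after the totals were seen, 9 were lower and 28 higher (24.3% lower; 27.5% of all genes), at a median of 0.038 against 0.071. Quantile normalization gave 20 lower and 17 higher (54.1%; 46.3% of all genes), at −0.018 against 0.010. With a trend on transcript length removed the split was 16 lower and 21 higher (43.2%; 49.1%), at 0.0058 against 0.0020. Relative to the median of all genes, the carriers' median was −0.041, −0.033, −0.028 and 0.004 in that order. Across these 4 scalings 9 carriers stayed lower, 13 stayed higher and 15 changed side. Leaving out DMSO 3 also moved the median, to −0.011 with 19 of 36 carriers lower, where that of all genes was −0.011.

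**Figure D2:**
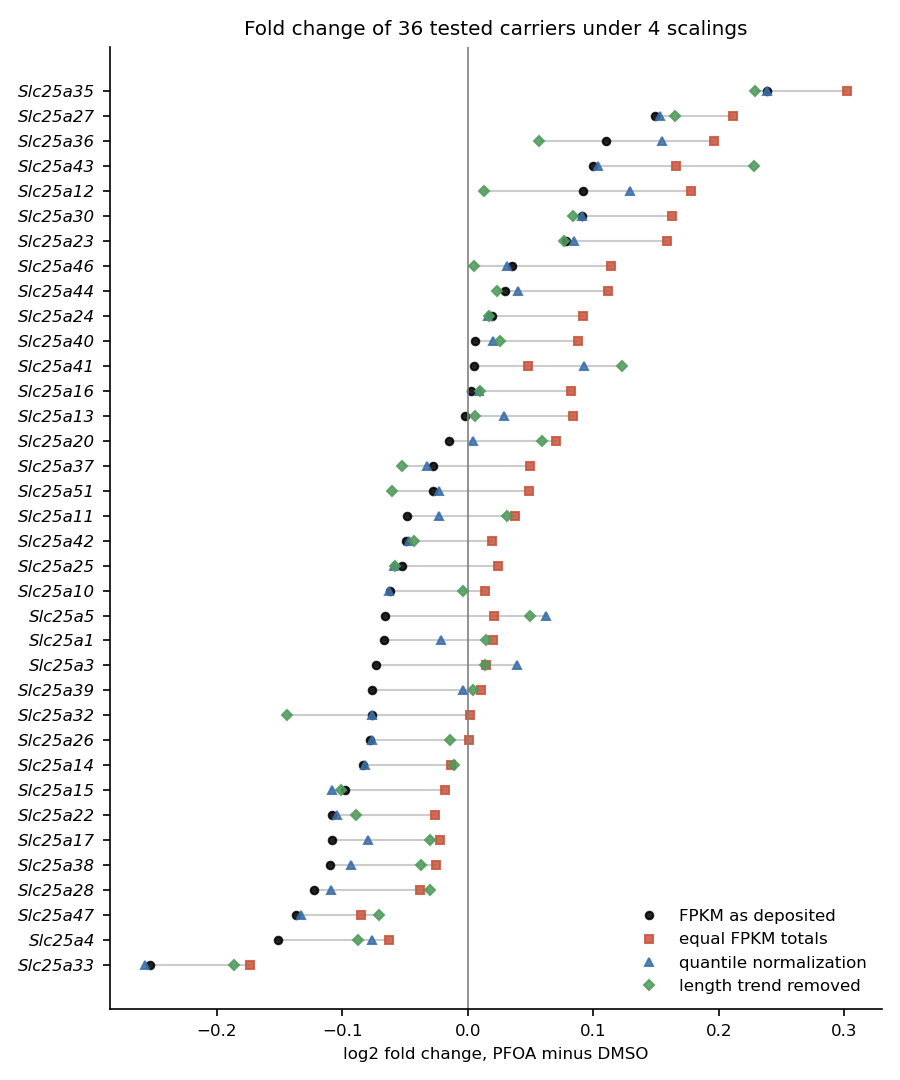
Log2 fold change (PFOA minus DMSO) of 36 of the 37 tested carriers with FPKM as deposited (circles), equal FPKM totals (squares), quantile normalization (triangles) and a transcript length trend removed (diamonds); a grey line joins the lowest and highest value. Slc25a33 and Slc25a4 stay below 0 and Slc25a35 and Slc25a27 above 0, while Slc25a5, Slc25a3, Slc25a39 and Slc25a1 lie on both sides.

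Transcript length moved with the groups, and the carriers with short transcripts lay on the same side as other short genes. Of the 16 tested carriers whose longest coding transcript was at least 1000 and under 2000 nt, 14 were lower as deposited (87.5%, median −0.077), as were 82.1% of all 2365 genes in that class (median −0.091). Of 15 carriers of at least 2000 and under 4000 nt, 7 were lower (46.7%), against 56.9% of all genes, and of 6 carriers of at least 4000 nt, 3 were lower (50%), against 22.2%. As a description across genes that share the same libraries, length and fold change had a Spearman's rho of 0.437 over 37 carriers and 0.602 over 11411 genes. Abundance went the same way: 5 of 6 carriers with a mean of at least 50 FPKM were lower (83.3%), against 69% of all genes at that level, with medians of −0.070 and −0.053.

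**Figure D3:**
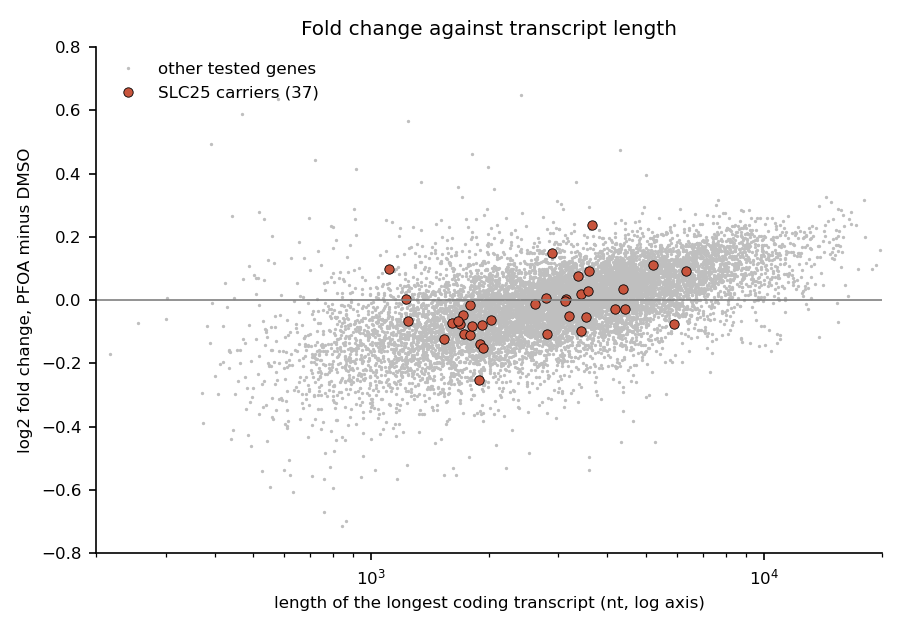
Log2 fold change as deposited (PFOA minus DMSO) against the length of the longest coding transcript in GENCODE M21 (log axis) for the 37 carriers (large points) and all other tested genes (small points, 15 outside the axes). The carriers with transcripts of 1000 to 2000 nt lie mostly below 0, within the cloud of other genes of that length.

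The ADP/ATP and phosphate carriers, which supply the ATP synthase with its substrates and export its product, had 3 of 3 tested members lower as deposited and 1 of 3 with equal totals, with 0 past the test. Slc25a4 was 170, 166 and 164 FPKM with DMSO 1 to 3 and 143, 155 and 153 with PFOA 1 to 3. Every PFOA library lay below every DMSO library, with PFOA 1 the lowest. The means were 167 ± 3.2 and 150 ± 6.3 (SD, n = 3 each), with a log2 fold change of −0.15 (SE 0.041; 95% interval −0.25 to −0.057; limma, adjusted p = 0.134). It was −0.063 with equal totals, −0.076 with quantile normalization and −0.087 with the length trend removed, so less than the change as deposited in each. Slc25a5 was 549, 529 and 525 FPKM with DMSO and 509, 511 and 511 with PFOA. Its groups did not overlap as deposited (log2 fold change −0.066, SE 0.038, limma adjusted p = 0.347), but the fold change was 0.021, 0.062 and 0.050 under the same 3 alternatives. Of the 50-nt words in its transcript, 46.6% also occur in transcripts of other genes, chiefly predicted genes such as Gm5560, and reads from such words may have been divided between these genes, so its level is uncertain. Slc25a3 was 455, 450 and 428 with DMSO and 407, 426 and 434 with PFOA, with overlapping groups (−0.073, SE 0.044, limma adjusted p = 0.37). It too changed side, to 0.015, 0.039 and 0.014 under the 3 alternatives.

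**Figure D4:**
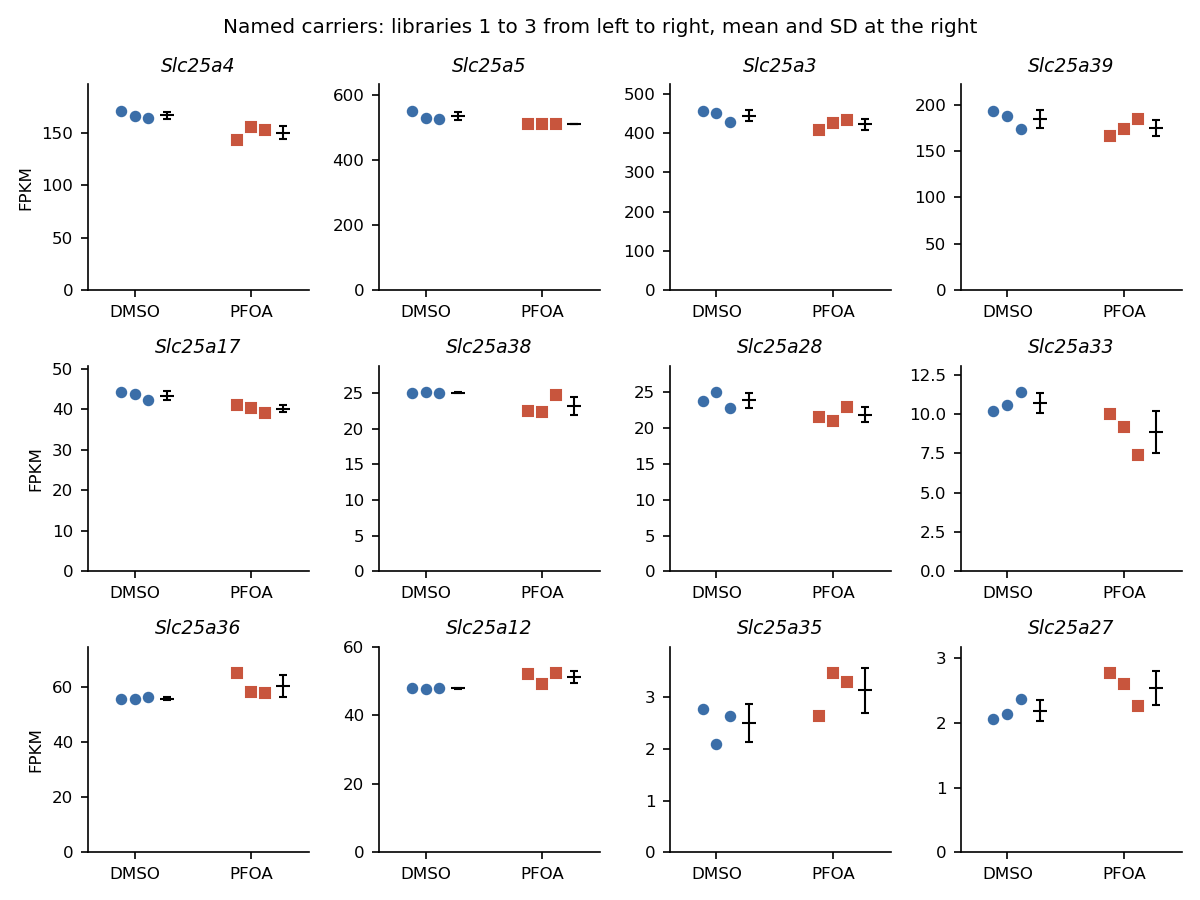
FPKM of 12 named carriers in libraries 1 to 3 of DMSO (circles) and PFOA (squares), with the mean and SD of each group beside them; every axis starts at 0. The groups stand apart for Slc25a4, Slc25a5, Slc25a17, Slc25a38 and Slc25a33, which are lower in PFOA as deposited (Slc25a5 is higher under the other scalings), and for Slc25a36 and Slc25a12, which are higher.

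The ATP-Mg/phosphate carriers, which adjust the adenine nucleotide pool of the matrix, had 3 of 4 members higher and 1 lower as deposited, 0 lower with equal totals, and 0 past the test. The most abundant, Slc25a23, was 13.3, 12.9 and 12.1 FPKM with DMSO and 12.9, 12.9 and 14.9 with PFOA. Only PFOA 3 was above the DMSO range (log2 fold change 0.078, 95% interval −0.071 to 0.226, limma adjusted p = 0.518). Its fold change was 0.159 with equal totals and 0.013 without PFOA 3. Slc25a24 and Slc25a25 had fold changes of 0.019 and −0.052 with overlapping groups. Slc25a41 is counted as higher from its mean log2(FPKM + 1), at a difference of 0.005, while its mean FPKM was 1.05 with DMSO and 1.03 with PFOA, so its direction depends on the scale. Of the relatives of the uncoupling proteins, 2 of 3 were higher under each of the 4 scalings and 0 passed. Slc25a27, also called UCP4, was 2.05, 2.14 and 2.37 with DMSO and 2.76, 2.60 and 2.25 with PFOA, so that PFOA 3 lay within the DMSO range (0.15, SE 0.081, limma adjusted p = 0.325). Slc25a30 was 3.72, 4.09 and 5.09 against 5.08, 4.69 and 4.11, with both groups over the same range. Slc25a14, with an E-box in the sequences above, had a log2 fold change of −0.083 (95% interval −0.34 to 0.18).

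**Figure D5:**
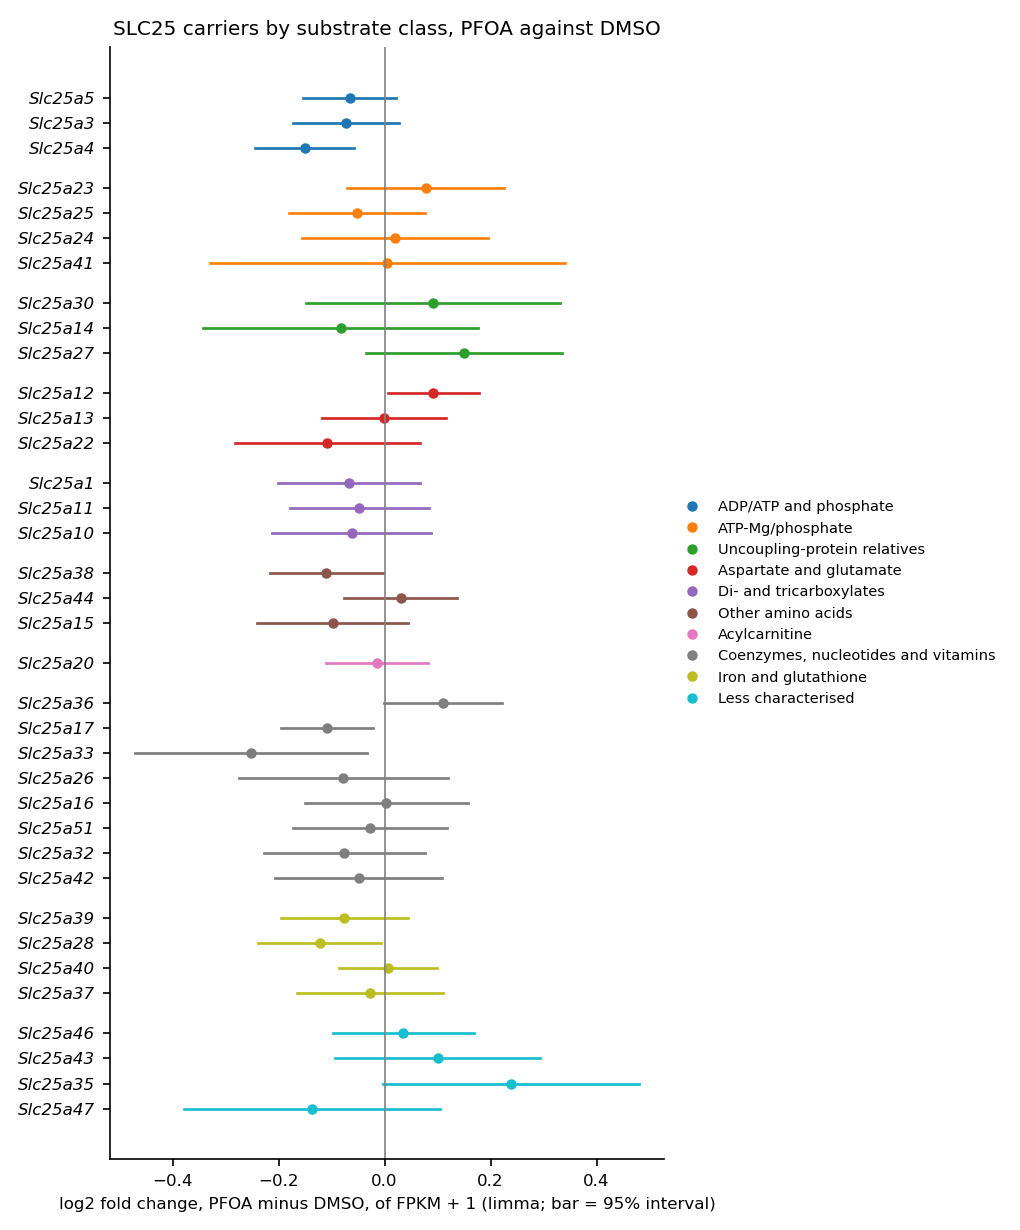
Log2 fold change of FPKM + 1 (PFOA minus DMSO) with its 95% interval from limma for 36 of the 37 tested carriers, coloured and grouped by substrate class. Most intervals cross 0; those of Slc25a4, Slc25a17, Slc25a33, Slc25a28 and Slc25a38 lie below it and that of Slc25a12 above it, before adjustment for the number of genes.

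The aspartate/glutamate carriers of the malate-aspartate shuttle and their glutamate-carrying relative were lower in 2 of 3 as deposited and in 1 of 3 under each other scaling, with 0 past the test. Slc25a12 (aralar) was 47.9, 47.8 and 47.9 FPKM with DMSO and 52.0, 49.1 and 52.3 with PFOA. Every PFOA library was above a narrow DMSO range, with means of 47.9 ± 0.071 and 51.1 ± 1.8 (SD, n = 3 each; log2 fold change 0.092; SE 0.038; from limma, adjusted p = 0.218). Its longest transcript, at 6351 nt, is the longest among the carriers, and with the length trend removed the fold change was 0.013. It was 0.178 with equal totals and 0.129 with quantile normalization. Slc25a13 (citrin), also with an E-box, was 41.5, 43.6 and 45.1 with DMSO and 46.1, 42.7 and 41.2 with PFOA, so the groups covered about the same range (95% interval −0.119 to 0.115). The difference between the carriers of this pair was not tested. Slc25a22, a glutamate carrier, had a log2 fold change of −0.11 (limma adjusted p = 0.441).

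All 3 tested di- and tricarboxylate carriers were lower as deposited, with 0 past the test, and all 3 were higher with equal totals. Slc25a1, which exports citrate for fatty acid and sterol synthesis and has an E-box, was 71.8, 72.7 and 67.2 FPKM with DMSO and 61.7, 69.7 and 70.9 with PFOA. Only PFOA 1 lay below the DMSO range (log2 fold change −0.067, SE 0.058, limma adjusted p = 0.533), and without it the fold change was −0.005. The oxoglutarate carrier Slc25a11 and the dicarboxylate carrier Slc25a10 had fold changes of −0.048 and −0.062. Slc25a20, which brings acylcarnitines into the matrix for β-oxidation, was 27.4, 27.4 and 28.8 with DMSO and 26.6, 27.9 and 28.3 with PFOA. It had a log2 fold change of −0.015 (95% interval −0.111 to 0.081, limma adjusted p = 0.869), which was 0.070 with equal totals.

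Among the other amino acid carriers 2 of 3 were lower under each of the 4 scalings and 0 passed. Slc25a38, which imports glycine for haem synthesis, was 25.04, 25.08 and 25.03 FPKM with DMSO and 22.5, 22.4 and 24.7 with PFOA. The DMSO libraries were nearly identical and all PFOA libraries were below them, PFOA 3 by little (log2 fold change −0.11, SE 0.047, limma adjusted p = 0.229). It was −0.025 with equal totals, −0.093 with quantile normalization and −0.037 with the length trend removed. The ornithine carrier Slc25a15, another gene with an E-box, had a fold change of −0.098 (limma adjusted p = 0.393), and the branched-chain amino acid carrier Slc25a44 one of 0.030.

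Of 9 carriers of coenzymes, nucleotides and vitamins 7 were lower and 2 higher as deposited, 2 were lower with equal totals, and 0 passed the test. This class holds the carriers of pyrimidine nucleotides, Slc25a33 and Slc25a36, which both have an E-box in the window and lay on opposite sides. Slc25a33 was 10.2, 10.6 and 11.4 FPKM with DMSO and 10.02, 9.21 and 7.41 with PFOA. All PFOA libraries were below the DMSO range, PFOA 1 by little and PFOA 3 by the most, with means of 10.7 ± 0.62 and 8.88 ± 1.3 (SD, n = 3 each). Its log2 fold change of −0.25 (SE 0.096, 95% interval −0.47 to −0.034, limma adjusted p = 0.194) was the lowest of the family with all 6 libraries and was −0.17, −0.26 and −0.19 with equal totals, quantile normalization and the length trend removed. Without PFOA 3 it was −0.141, and then Slc25a4 at −0.162, Slc25a28 at −0.158 and Slc25a38 at −0.154 were lower. Slc25a36 was 55.5, 55.5 and 56.6 with DMSO and 65.0, 58.4 and 57.9 with PFOA. PFOA 1 stood highest and all PFOA libraries were above the DMSO range (log2 fold change 0.11, SE 0.049, limma adjusted p = 0.241). It was 0.20 with equal totals, 0.155 with quantile normalization, 0.057 with the length trend removed and also 0.057 without PFOA 1. The contrast between the pyrimidine nucleotide carriers was noticed in the data and was not tested.

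Slc25a17 differs from the rest of the class in being a carrier of the peroxisomal membrane, where it moves coenzyme A and other cofactors. It was 44.2, 43.8 and 42.2 FPKM with DMSO and 41.02, 40.5 and 39.1 with PFOA. The groups did not overlap, with means of 43.4 ± 1.1 and 40.2 ± 0.96 (SD, n = 3 each; log2 fold change −0.11; SE 0.038; from limma, adjusted p = 0.173). The fold change was −0.022 with equal totals, −0.079 with quantile normalization and −0.030 with the length trend removed. The folate carrier Slc25a32, the S-adenosylmethionine carrier Slc25a26, the NAD carrier Slc25a51 and the coenzyme A carriers Slc25a16 and Slc25a42 had fold changes from −0.078 to 0.003, all with overlapping groups.

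Of the iron and glutathione carriers 3 of 4 were lower as deposited, 1 of 4 with equal totals and 2 of 4 with the length trend removed, and 0 passed. Slc25a39 was 193, 187 and 174 FPKM with DMSO and 167, 174 and 184 with PFOA, with overlapping groups (log2 fold change −0.076, SE 0.053, limma adjusted p = 0.43), and it was 0.011 with equal totals. Slc25a28 (mitoferrin 2), an iron importer, was 23.7, 24.9 and 22.8 with DMSO and 21.6, 20.9 and 23.0 with PFOA, where PFOA 3 lay within the DMSO range. Its fold change was −0.12 (SE 0.051, limma adjusted p = 0.22), with −0.038 at equal totals, −0.109 with quantile normalization and −0.030 with the length trend removed. The other mitoferrin, Slc25a37, was 7.26 ± 0.25 and 7.11 ± 0.48, and Slc25a40, a paralogue of Slc25a39, had a fold change of 0.006 with an interval of −0.087 to 0.099.

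Of the less characterised members 3 of 4 tested were higher under each of the 4 scalings, with 0 past the test. Slc25a35 was 2.78, 2.09 and 2.64 FPKM with DMSO and 2.64, 3.46 and 3.30 with PFOA, with PFOA 1 inside the DMSO range. Its log2 fold change of 0.24 (SE 0.106, limma adjusted p = 0.241) was the highest of the family as deposited, and 0.151 without DMSO 2. Of its transcript, 25.8% of the 50-nt words occur in other genes, among them Rangrf. Slc25a43 was 3.22, 2.80 and 2.54 against 3.0, 3.41 and 2.96 (0.10, SE 0.085, limma adjusted p = 0.522). It was 0.228 with the length trend removed (limma adjusted p = 0.283), 0.166 with equal totals and 0.04 without DMSO 3. The outer membrane protein Slc25a46, which acts in mitochondrial dynamics, was 8.19, 8.76 and 9.19 against 9.19, 9.15 and 8.51 (0.035, limma adjusted p = 0.76), and its fold change was −0.004 without DMSO 1. Slc25a47, at 1.31 FPKM on average, had a fold change of −0.14 with an interval of −0.379 to 0.105.

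Gene lists around the carriers were read from the same fit, and 0 of their 27 tested genes passed it. SLC25 proteins under other symbols were lower in 3 of 3 tested as deposited and in 1 of 3 with equal totals. Mtch1, an outer membrane member, was 84.1, 83.0 and 83.7 FPKM with DMSO and 76.1, 77.9 and 73.3 with PFOA, with groups apart (log2 fold change −0.14, SE 0.036, limma adjusted p = 0.128). It was −0.054 with equal totals, −0.097 with quantile normalization and −0.079 with the length trend removed. Its relative Mtch2, the insertase of the outer membrane, and the uncoupling protein Ucp2 had fold changes of −0.076 and −0.063, both above 0 with equal totals. Ucp1 and Ucp3 were under 1 FPKM and were not tested.

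Other mitochondrial transporters were lower in 7 and higher in 7 of 14 as deposited, and lower in 4 of 14 with equal totals. The pyruvate carrier subunit Mpc1 was 20.3, 18.5 and 18.4 FPKM with DMSO and 14.6, 16.9 and 16.7 with PFOA, with groups apart (log2 fold change −0.23, SE 0.064, limma adjusted p = 0.135). The inner membrane ABC transporter Abcb8 was 12.4 ± 0.77 and 10.8 ± 0.035 (limma adjusted p = 0.142), and the outer membrane channel Vdac3 was 99.3 ± 2.3 and 93.0 ± 1.6 (limma adjusted p = 0.191; SD, n = 3 each). The log2 fold change of Mpc1 was −0.150 with equal totals, −0.22 with quantile normalization and −0.090 with the length trend removed. That of Abcb8 was −0.182 as deposited, −0.101 with equal totals, −0.178 with quantile normalization and −0.173 with the length trend removed. Vdac3 had −0.094 as deposited, −0.007 with equal totals, −0.037 with quantile normalization and 0.007, on the other side, with the length trend removed.

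The TIM22 route had 7 of 10 genes lower as deposited and 6 of 10 under each of the other scalings. Of all tested genes 52.4% were lower as deposited, 27.5% with equal totals, 46.3% with quantile normalization and 49.1% with the length trend removed. The route's median was −0.144 as deposited, −0.059 with equal totals, −0.117 with quantile normalization and −0.071 with the length trend removed. Relative to the median of all genes it was −0.138, −0.130, −0.127 and −0.073 in that order. For 4 of the 10 the groups did not overlap, all of them lower, against 13.7% of all tested genes. The small chaperone Timm8b was 100, 102.5 and 99.6 FPKM with DMSO and 67.7, 92.6 and 76.3 with PFOA (log2 fold change −0.36, SE 0.095, limma adjusted p = 0.133). Without PFOA 2 it passed, at −0.48 (limma adjusted p = 0.0367), where 70 of all tested genes passed, against 1 with all libraries. Without PFOA 1 it was −0.257 (limma adjusted p = 0.238). It was −0.274 with equal totals, −0.306 with quantile normalization and −0.155 with the length trend removed. Timm10b was 36.3 ± 1.2 and 29.8 ± 3.0 (limma adjusted p = 0.127) and Timm13 was 46.6 ± 1.7 and 40.3 ± 2.7 (limma adjusted p = 0.133; SD, n = 3 each). Timm13 had a log2 fold change of −0.205 as deposited, −0.119 with equal totals, −0.171 with quantile normalization and −0.087 with the length trend removed. For Timm10b these were −0.283, −0.198, −0.259 and −0.28. The receptor Tomm70a was 98.6, 104.2 and 101.0 with DMSO and 101.4, 102.5 and 102.9 with PFOA.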

How the data were processed

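The deposited table gives FPKM per gene symbol and library, to 2 decimals. Per the submitters' processing notes HISAT2 2.0.4, Bowtie2 2.2.5 and GRCm39 were used; the role of each is not stated there, and the counter and annotation are not named. Low values did not fall on whole multiples of a gene's smallest value (30.1% within 0.15, where an even spread gives 30%), so reads were not recovered, no count test was run and depth is unknown.

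The 11876 genes whose mean FPKM reached 1 were compared as log2(FPKM + 1) by limma 3.58.1 under R 4.3.3, two-sided, the prior variance following intensity, and Benjamini-Hochberg adjustment over all of them; adjusted p under 0.05 was called. The fit was also run on simulated normal data, drawn independently for each gene with spreads taken from the fit. Such data meet the assumptions of the fit by design, so they cannot test them. The simulated data also held no length trend and no difference in totals, so they do not bear on those features. Members and lists were chosen with earlier results of these data known. Named carriers are the 6 with the smallest p in each direction, the 6 most abundant, the most abundant of each class, and up to 3 genes by p of each partner list; others appear as class members, untested genes or carriers with an E-box. The values of 1 tested carrier are not reported here, though it is in the fits and counts. Transcript lengths and 50-nt words shared between genes came from GENCODE M21 (GRCm38), so no file coordinates are given. Words were matched on both strands, so a share can include genes that overlap on the opposite strand. A length was found for 96.1% of tested genes and all 46 carriers. Alternatives changed the pseudocount, filter, scaling, variance prior, library weights, block and libraries.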

Additional observations from a re-analysis of the deposited data

How the results depend on the processing

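In every alternative 0 carriers were called. Over all genes, the count called was 1, and 0 without the variance trend, without a low-value filter, with the replicate block or with the length trend removed, 2 with library weights, 52 without DMSO 3 and PFOA 1, and 0 to 70 leaving out 1 library (0 without DMSO 1, DMSO 2 or PFOA 3, 55 without DMSO 3, 70 without PFOA 2). Carriers lower at an unadjusted p under 0.05 numbered 5, but 0 with equal FPKM totals, 1 with quantile normalization, 3 without the variance trend, 3 with the replicate block, 1 with the length trend removed and 1 to 5 leaving out 1 library (1 without DMSO 2, 3 without PFOA 2). Those higher numbered 1, but 5 with equal totals, 2 with quantile normalization, 0 with the replicate block and 0 to 2 leaving out 1 library (0 without DMSO 2 or DMSO 3, 2 without PFOA 2 or PFOA 3). For all tested genes at that threshold, 500 of 11879 were lower and 2506 higher with equal totals. They were 1489 and 1016 of 11876 as deposited, 1114 and 1362 with quantile normalization, and 851 and 747 with the length trend removed. For the other settings such counts over all genes are not given here. The number of carriers lower at any p was 24, but 9 with equal totals, 20 with quantile normalization and 16 with the length trend removed. Leaving out 1 library gave 19 to 27 (19 of 36 without DMSO 3, 27 of 38 without DMSO 1). The carriers' median of −0.048 was 0.038 with equal totals, −0.032 without the filter, −0.057 at a mean FPKM of at least 5, −0.018 with quantile normalization, 0.0058 with the length trend removed, −0.032 without DMSO 3 and PFOA 1, and −0.053 to −0.011 leaving out 1 library (−0.011 without DMSO 3). Called partner genes numbered 0, and 0 to 1 leaving out 1 library (Timm8b, without PFOA 2). Fewer libraries or more genes enter some of these fits. Beyond that the cause was not tested. DMSO 3 had a Spearman's rho of 0.989 and 0.9898 with DMSO 1 and 2, and of 0.9897, 0.9908 and 0.9903 with PFOA 1 to 3. It thus lay no nearer to the other DMSO libraries than to PFOA 2 and PFOA 3. The labels do not say whether the replicate numbers pair the libraries. Same-numbered deviations from the group means correlated at −0.107, −0.010 and −0.138, and those with unlike numbers at −0.065 to 0.148. With 3 libraries per group these values cannot decide it. The low carriers are limited by unknown depth.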
